A study of Mus musculus with 14 samples.

Results

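Respiratory complex I oxidises NADH at the inner mitochondrial membrane, passes the electrons to ubiquinone and pumps protons. Its matrix arm holds the flavin and the iron-sulfur clusters, its membrane arm holds the pumps, and accessory subunits with no catalytic role surround and stabilise both arms. Most of its subunits are encoded in the nucleus and the remaining core subunits of the membrane arm in the mitochondrial genome, and neurons depend on its output to sustain firing.

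The genes described here are 36 nuclear genes named on a list of complex I subunits and looked up by symbol among the 23337 symbols of the count tables, with no use of their values. They comprise 6 core subunits of the matrix arm, 9 accessory subunits of the matrix arm, 9 of the proximal and 10 of the distal membrane arm, the acyl carrier protein Ndufab1, and Ndufa4. Ndufa4 was named as a complex I protein and is now assigned to cytochrome c oxidase. Ndufs5, an accessory subunit of the proximal membrane arm, had 0 counts in all 14 libraries, where a count of 0 allows up to 3 counts, or 0.107 to 0.238 when scaled as below. The other 35 members passed the filter on low counts in both tissues. The subunits encoded in the mitochondrial genome were not analysed here.

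RNA sequencing was done on 3 Thap1 conditional knockout (cKO) and 3 wildtype (WT) samples of mouse striatum, and on 4 cKO and 4 WT samples of cerebellum. All were on the C57Bl/6 background and 6 months old, and the controls were littermates. THAP1, the product of the targeted gene, binds DNA through a zinc finger, and its mutations underlie an inherited dystonia. The sources used here give neither the Cre driver nor the deleted part of Thap1. Each of the 4 groups holds libraries with male-specific Ddx3y and others with female-specific Xist, and thus more than 1 animal. The labels do not say that every replicate is a separate animal, so part of the spread behind the p-values may be technical.

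Levels are CPM, counts scaled to a common library size, on a single scale over all libraries, and each fold change is cKO over WT unless stated otherwise. A gene was called at an adjusted p under 0.05 over all genes tested. The 6 striatal libraries held 12595941 to 14258141 counts and the 8 cerebellar ones 19458954 to 28099205. Thap1 was lower in cKO in both tissues, at 5.92 ± 2.08 CPM in cKO and 15.2 ± 1.19 CPM in WT striatum (SD, n = 3 each; log2 fold change −1.36, edgeR adjusted p = 0.0562). In cerebellum it was at 6.98 ± 0.364 CPM in cKO and 8.92 ± 1.20 CPM in WT (SD, n = 4 each; log2 fold change −0.34, edgeR adjusted p = 0.0488). It was called without WT replicate 1 in striatum (edgeR adjusted p = 0.0248), and was not called in 6 of the 8 fits that leave out a cerebellar library (up to 0.170).

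One striatal library stood apart for these genes and bears on every striatal value. In WT replicate 1 the summed level of the members was 1276 CPM, against 2540 and 2569 CPM in WT replicates 2 and 3. The sum was 2633, 2860 and 2616 CPM in the cKO striata, 2698 to 2771 CPM in the cKO cerebella and 2608 to 2707 CPM in the WT cerebella. WT replicate 1 was thus the library below all others. The genotype tests in striatum are therefore given with and without it.

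Ndufb4, of the distal membrane arm, and Ndufa4 were the members called in cerebellum, and Ndufb4 had the smallest p of the members in striatum too. Because THAP1 binds DNA, the 250 bases before the RefSeq transcription start of these genes are shown, from the RefSeq table of build GRCm38.p6, read 5′ to 3′ on the strand of the gene. Both genes lie on the minus strand, Ndufb4 at chr16:37654369-37654618 and Ndufa4 at chr6:11907451-11907700. Capitals mark each match, on either strand, to the THAP1 letters TNNNGGCA.
Ndufb4: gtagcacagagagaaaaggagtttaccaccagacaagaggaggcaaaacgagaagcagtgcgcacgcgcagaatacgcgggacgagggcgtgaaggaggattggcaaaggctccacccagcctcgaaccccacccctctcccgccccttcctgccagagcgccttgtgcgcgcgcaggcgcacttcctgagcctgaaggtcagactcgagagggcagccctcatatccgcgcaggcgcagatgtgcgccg
Ndufa4: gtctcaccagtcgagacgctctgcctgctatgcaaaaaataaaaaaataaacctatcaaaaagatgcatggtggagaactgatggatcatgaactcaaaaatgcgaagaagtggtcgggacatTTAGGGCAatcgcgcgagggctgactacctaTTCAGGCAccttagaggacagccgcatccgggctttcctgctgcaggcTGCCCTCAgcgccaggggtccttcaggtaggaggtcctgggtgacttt

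The Ndufa4 window held 3 matches, with their first bases at −127, −96 and −48 from the start, the last of them on the opposite strand. The Ndufb4 window held 0. Among the 33 members whose window was in the table and could be shown, 15 held at least 1 match (45.5%), against 36.3% of 27025 promoters of the same length. The letters searched for NRF1, a regulator of respiratory chain genes (GCGCATGCG), were found in Ndufa8 and Ndufa11 (2 of 33, 6.06%, against 1.49% of promoters). Those for YY1 (AANATGGCG) were found in Ndufb11 (1 of 33, 3.03%, against 1.12%), and those for ETS factors such as GABPA (CCGGAAGT) in 0 of the 33 windows, against 2.93% of promoters. Both strands were searched for every motif, and the THAP1 and YY1 letters have GGC in common. A match describes the letters in these windows and no binding.

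In cerebellum Ndufb4 and Ndufa4 rose in cKO. They were 2 of the 35 members tested, while 2.63% of all genes tested rose, and 0 members fell, while 4.96% of all genes did. Most members had small positive fold changes: 31 of 35 were above 0, against 51.6% of all genes, and the median log2 fold change of the members was 0.06, against 0.0044 over all genes. Without Ndufa4 the count was 1 of 34 and the median 0.06. At an unadjusted p under 0.05 there were 10 of the 35 members, where 22.5% of all genes were.

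Ndufb4, an accessory subunit of the distal membrane arm, stood at 8.03, 9.47, 8.51 and 8.04 CPM in cKO cerebella, against 5.21, 6.44, 6.00 and 7.31 CPM in WT cerebella. Every cKO cerebellum was above every WT cerebellum. The log2 fold change was 0.46 (SE 0.106, edgeR adjusted p = 0.0137), which is 136% of WT. These levels rest on 171 to 237 counts in cKO and 109 to 185 counts in WT, so Ndufb4 was among the members with the fewest counts. Ndufb4 passed edgeR's threshold, or that of the other tools, under 15 of 17 other settings. The exceptions were the fit without cKO replicate 2 (adjusted p = 0.0540) and a single model of all 14 libraries (adjusted p = 0.364). The annotation holds another locus named after it, Ndufb4c, so its counts could be shared with a near copy.

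Ndufa4 stood at 228, 227, 227 and 231 CPM in cKO cerebella, against 218, 206, 217 and 213 CPM in WT cerebella. The genotypes did not overlap, although the difference was small, at 107% of WT. The log2 fold change was 0.11 (SE 0.0305, edgeR adjusted p = 0.0384). Of the 8 edgeR fits that leave out a cerebellar library, 1 kept Ndufa4 past the threshold, the fit without WT replicate 1 (adjusted p = 0.0311), and the others gave 0.0677 to 0.0936. It also did not pass without the filter on low counts (0.0617), when a trend with exon length or principal transcript length was removed (0.221 and 0.265) or in the model of all 14 libraries (0.947).

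In the core of the matrix arm, 0 of the 6 members on the list were called in cerebellum by edgeR, while DESeq2 called Ndufs1. At an unadjusted p under 0.05 there was 1 member, Ndufs1. The 6 log2 fold changes ran from 0.01 to 0.12. Ndufs1, the large iron-sulfur subunit of the NADH-oxidising module, came closest, at 204 ± 6.53 CPM in cKO and 190.1 ± 8.40 CPM in WT cerebella (SD, n = 4 each; log2 fold change 0.12, edgeR adjusted p = 0.0645). Its 4 cKO cerebella stood at 199, 212, 199 and 208 CPM and its 4 WT cerebella at 182, 184, 196 and 198 CPM, so the groups narrowly did not overlap. Ndufv1, which binds the flavin and takes the electrons from NADH, was at 150.2 ± 3.64 CPM in cKO and 150.3 ± 6.59 CPM in WT cerebella. Its iron-sulfur partner Ndufv2 was at 137 ± 1.49 CPM in cKO and 134 ± 1.18 CPM in WT. In the module that reduces ubiquinone, Ndufs3 was at 36.1 ± 0.922 CPM in cKO and 35.8 ± 1.82 CPM in WT, the iron-sulfur subunit Ndufs7 at 81.4 ± 1.501 and 80.8 ± 2.35 CPM, and the iron-sulfur subunit Ndufs8 at 67.5 ± 1.24 and 66.5 ± 2.39 CPM.

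The accessory subunits of the matrix arm and of the proximal membrane arm held 0 called members in cerebellum by edgeR or DESeq2, with 2 and 1 at an unadjusted p under 0.05. Of the 9 accessory subunits of the matrix arm, 8 had a positive log2 fold change, with a median of 0.07. Ndufa6, which carries an acyl carrier protein on the matrix arm, had the largest of them (0.11, edgeR adjusted p = 0.0902). Its levels were 73.2, 80.1, 76.9 and 78.9 CPM in cKO cerebella and 69.8, 73.1, 72.7 and 73.0 CPM in WT cerebella. These values just failed to overlap. Ndufv3, a subunit of the NADH-oxidising module, was the negative one (−0.03). Of the 8 measured accessory subunits of the proximal membrane arm, 5 were positive, with a median of 0.04. They ran from −0.05 for Ndufc1 to 0.13 for Ndufa1, a small subunit encoded on the X chromosome (edgeR adjusted p = 0.0727).

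All 10 accessory subunits of the distal membrane arm had positive log2 fold changes in cerebellum, with a median of 0.07, and Ndufb4 was the member called. Next came Ndufb6 (0.14, edgeR adjusted p = 0.0853) and Ndufb3 (0.12, 0.148). Ndufb2 was nearest to 0, at 45.7 ± 2.15 CPM in cKO and 45.9 ± 0.352 CPM in WT (SD, n = 4 each). Ndufab1, the mitochondrial acyl carrier protein that is also needed for fatty acid synthesis, was at 6.84 ± 0.570 CPM in cKO and 6.63 ± 0.538 CPM in WT cerebella. Over all arms, cKO and WT cerebella did not overlap for 8 of 35 members, all higher in cKO (Ndufa1, Ndufa4, Ndufa6, Ndufa12, Ndufb4, Ndufb6, Ndufs1 and Ndufv2), and this held for 5.06% of all genes tested. For 0 members were all cKO cerebella below all WT cerebella, against 9.35% of all genes tested.

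**Figure D1:**
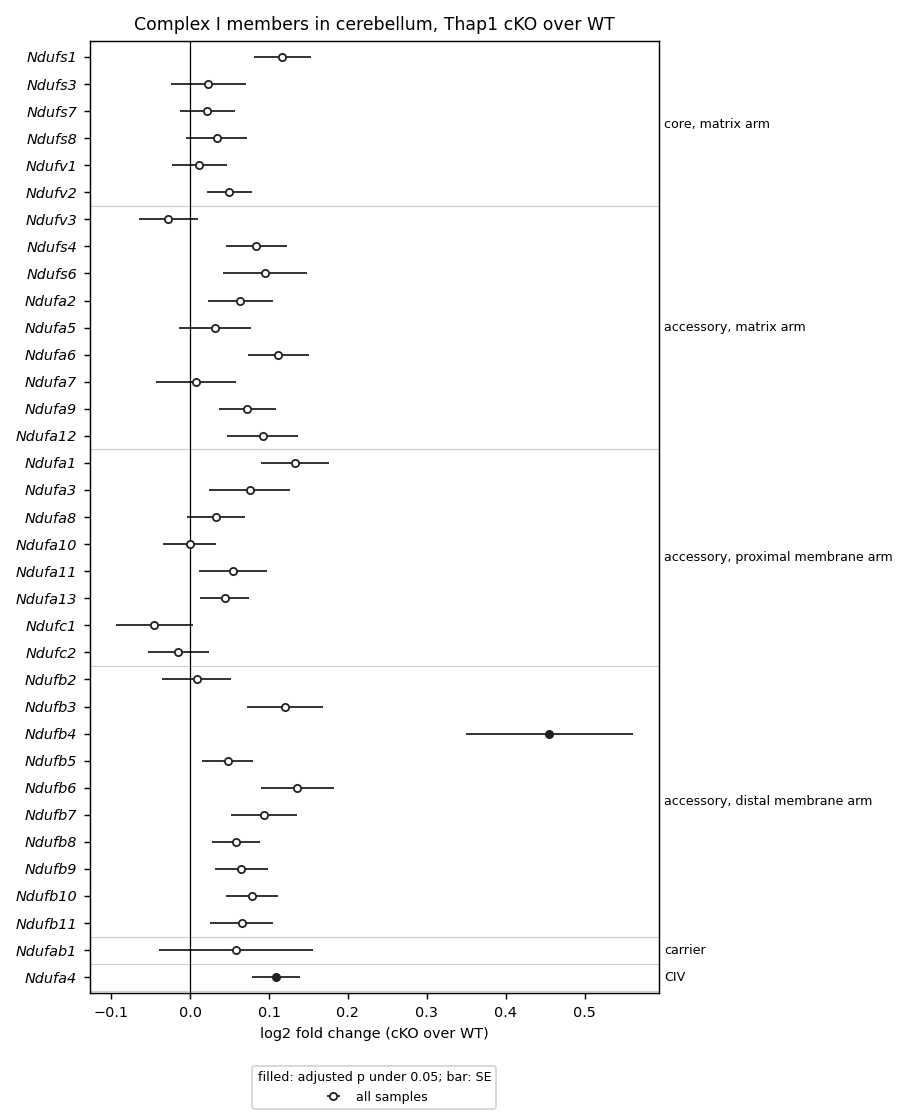
Log2 fold change of each of the 35 measured members in cerebellum, cKO over WT (horizontal axis; bars are SE; 4 cKO and 4 WT samples), ordered by arm, with CIV for cytochrome c oxidase. Filled points, Ndufb4 at 0.46 and Ndufa4 at 0.11, have an adjusted p under 0.05 and the open points do not.

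In striatum 0 of the 35 members were called by edgeR with all 6 libraries, where 0.384% of all genes were, and 0 by DESeq2. All 35 had a positive log2 fold change, from 0.07 for Ndufab1 to 1.08 for Ndufb4, with a median of 0.36, against 0.0024 over all genes, of which 50.6% were positive. At an unadjusted p under 0.05 there were 2 of the 35 members, Ndufb4 and Ndufa9, where 7.24% of all genes were. With limma, which gave each library a quality weight, the median was 0.12, with 33 members positive and 2 negative. Without WT replicate 1 the median was 0.08, 27 members were positive and 8 negative, 0 were called (0.856% of all genes were), and 4 had an unadjusted p under 0.05, as 8.49% of all genes did.

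Ndufb4 stood at 7.78, 7.02 and 10.4 CPM in cKO striata, against 1.90, 5.36 and 4.52 CPM in WT striata. Every cKO striatum was above every WT striatum, with WT replicate 1 the lowest. The log2 fold change was 1.08 (SE 0.327, edgeR adjusted p = 0.420) with all libraries and 0.76 (SE 0.212, adjusted p = 0.208) without WT replicate 1. The levels rest on 107, 87 and 124 counts in cKO striata and 22, 68 and 53 counts in WT striata. Of 15 other settings, 1 called Ndufb4 in striatum, the edgeR model of all 14 libraries (adjusted p = 0.0367).

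Ndufa9, an accessory subunit near the ubiquinone site that binds a nicotinamide cofactor, stood at 104, 112 and 104 CPM in cKO striata, against 70.1, 96.2 and 94.6 CPM in WT striata. The genotypes did not overlap. The log2 fold change was 0.29 (SE 0.124, edgeR adjusted p = 0.669), or 0.17 (SE 0.0695, adjusted p = 0.530) without WT replicate 1. Ndufa4 stood at 199, 209 and 189 CPM in cKO striata, against 67.0, 176 and 171 CPM in WT striata. Here too the genotypes did not overlap, with a log2 fold change of 0.52 (SE 0.294, edgeR adjusted p = 0.756), or 0.20 (SE 0.0696, adjusted p = 0.379) without WT replicate 1.

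In the core of the matrix arm, Ndufv1 and Ndufs8 had the smallest p in striatum. Ndufv1 stood at 149, 159 and 154 CPM in cKO striata, against 108, 139.8 and 144 CPM in WT striata (log2 fold change 0.24, SE 0.116, edgeR adjusted p = 0.730). Ndufs8 stood at 65.3, 76.9 and 66.6 CPM in cKO striata, against 27.6, 62.3 and 58.9 CPM in WT striata (log2 fold change 0.49, SE 0.254, edgeR adjusted p = 0.740). For both genes the cKO striata lay above all WT striata, and WT replicate 1 was far below the other WT striata. Without it the log2 fold changes were 0.12 (SE 0.0658, edgeR adjusted p = 0.692) for Ndufv1 and 0.20 (SE 0.0893, adjusted p = 0.564) for Ndufs8. Ndufs1 was at 195 ± 14.5 CPM in cKO and 177 ± 7.73 CPM in WT striata (SD, n = 3 each), Ndufs3 at 43.0 ± 6.17 and 33.1 ± 9.79 CPM, Ndufs7 at 68.5 ± 6.08 and 54.1 ± 19.0 CPM, and Ndufv2 at 143 ± 7.96 and 121 ± 31.1 CPM. Ndufab1 was at 5.14 ± 0.690 CPM in cKO and 4.88 ± 1.22 CPM in WT striata. The WT means without replicate 1 were 180.3 ± 7.95 CPM for Ndufs1, 38.7 ± 0.676 CPM for Ndufs3, 65.1 ± 1.53 CPM for Ndufs7, 139 ± 4.55 CPM for Ndufv2 and 5.55 ± 0.506 CPM for Ndufab1 (SD, n = 2). Without WT replicate 1, all 6 core subunits still had positive log2 fold changes, from 0.04 for Ndufv2 to 0.20 for Ndufs8.

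Leaving out WT replicate 1 moved the medians of all arms towards 0. The downward direction of the move was fixed in advance, because this library was the lowest striatal one for all 35 members, but its size was not. With and without WT replicate 1, the median log2 fold change was 0.38 and 0.08 over the 9 accessory subunits of the matrix arm. It was 0.38 and 0.05 over the 8 measured subunits of the proximal membrane arm, and 0.38 and 0.06 over the 10 of the distal membrane arm. It was 0.29 and 0.12 over the 6 core subunits. The members that turned negative without the library were Ndufa5, Ndufa6, Ndufa8, Ndufb2, Ndufb3, Ndufb5, Ndufc1 and Ndufab1, the deepest being Ndufab1 at −0.11. Over all arms, cKO and WT striata did not overlap for 8 members, all higher in cKO (Ndufa4, Ndufa9, Ndufa11, Ndufb4, Ndufb7, Ndufb8, Ndufs8 and Ndufv1). Without WT replicate 1 the same 8 members did not overlap. That was fixed in advance, because this library was the lowest striatal one for all 35 members. All cKO striata lay above all WT striata for 7.05% of all genes with all libraries and for 11.9% without WT replicate 1. For 0 members were all cKO striata below all WT striata in either case, against 7.97% and 12.8% of all genes. With all libraries this 0 was fixed in advance for the same reason.

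**Figure D2:**
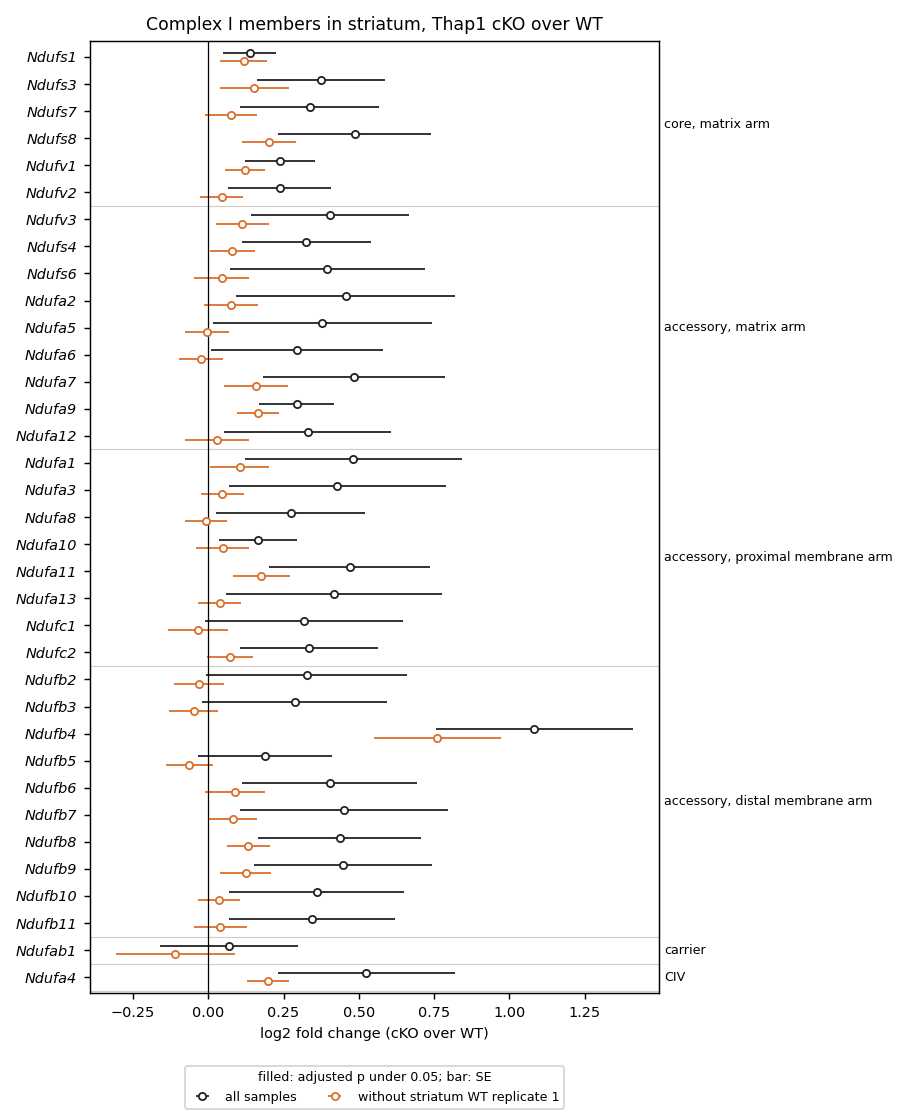
Log2 fold change of each of the 35 measured members in striatum, cKO over WT (horizontal axis; bars are SE), with all 6 samples (black) and without WT replicate 1 (orange), ordered by arm, with CIV for cytochrome c oxidase. All black points lie above 0 with a median of 0.36, the orange points lie around a median of 0.08, and no point is filled, since no member had an adjusted p under 0.05.

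WT replicate 1 was the lowest of the 6 striatal libraries for 35 of 35 members, against 34.5% of all genes tested in striatum. Its level relative to the mean of WT replicates 2 and 3 ran from 29.0% for Ndufa5 to 94.9% for Ndufs1, with a median of 41.9%. The sum of the core subunits was 71.2% of that mean. The sums were 45.5% for the accessory subunits of the matrix arm, 45.5% for the proximal and 40.2% for the distal membrane arm. Single members did not follow the arms: the core ran from 45.5% for Ndufs8 to 94.9% for Ndufs1. The accessory subunits Ndufa9 and Ndufa10 stood at 73.5% and 75.2%. Ndufb4 stood at 38.5% and Ndufa4 at 38.6%. The spread within WT striata was set by the same library: the median coefficient of variation over the members was 41.7% with it and 2.80% without it, beside 5.82% in cKO striata, 2.93% in cKO cerebella and 2.94% in WT cerebella.

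The relative level of the members in this library was lower in the classes of shorter transcripts, although Ndufa5, the lowest, has 875 bases. The 15 members with a principal transcript under 750 bases stood at a median of 38.6% of the other WT striata, the 14 members of 750 to 1500 bases at 43.9%, and the 6 members of 1500 to 3000 bases at 68.3%. Other genes of the same length classes stood at medians of 44.6%, 66.8% and 90.7%, and genes of at least 3000 bases, among which there is no member, at 112%. Across the 35 members the log2 ratio of WT replicate 1 to the others had a Pearson r of 0.75 and a Spearman rho of 0.68 with log2 transcript length, all values sharing the same 3 libraries. The striatal log2 fold change had a Pearson r of −0.41 (rho −0.60) with log2 length with all libraries, and −0.0053 (rho −0.069) without WT replicate 1. With each library's trend over transcript length removed, the median of the members in striatum was 0.18 over principal transcripts and 0.21 over exon unions.

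**Figure D3:**
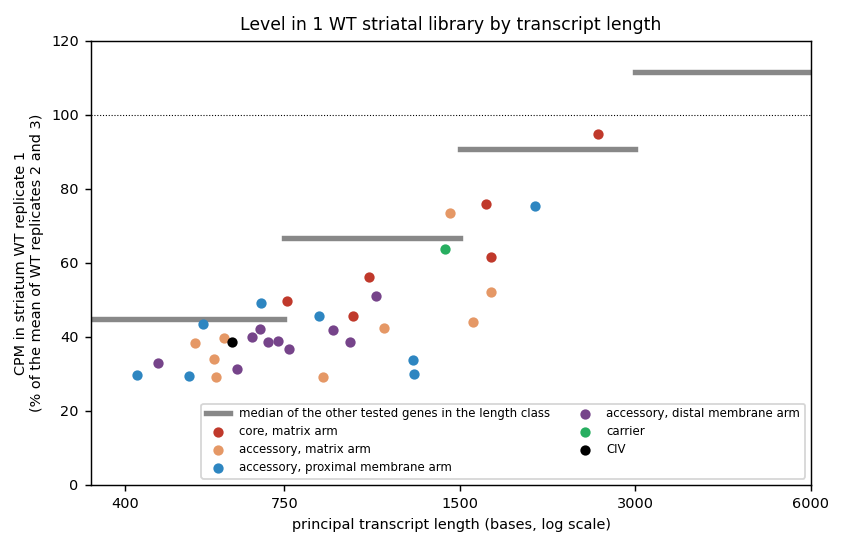
CPM of each of the 35 measured members in striatum WT replicate 1, as a percentage of the mean of WT replicates 2 and 3 (vertical axis), against principal transcript length in bases (log axis), coloured by arm, with CIV for cytochrome c oxidase. Grey lines are medians of the other tested genes in each length class, from 44.6% below 750 bases to 112% from 3000 bases, and the members lie between 29.0% and 94.9%.

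Other lists of short or mitochondrial genes were low in the same library. Cytosolic ribosomal protein genes summed to 42.6% of the mean of WT replicates 2 and 3, complexes II to V to 63.9%, mitochondrial ribosomal protein genes to 65.2% and complex I assembly factors to 81.0%. Regulators of mitochondrial gene expression, such as Ppargc1a, summed to 118%. Of the cell type markers, the sum in WT replicate 1 was 90.7% of the other WT striata for 11 striatal projection neuron genes, 115% for 14 oligodendrocyte genes, 112% for 8 astrocyte genes, 82.9% for 8 microglial genes, 51.6% for 5 ependymal genes, 129% for 7 choroid plexus genes, 271% for 7 meningeal genes and 113% for 6 endothelial genes. Male-specific Ddx3y was at 107 CPM in this library and at 0 CPM in WT replicates 2 and 3, and at 83.0 CPM in cKO replicate 1, where the members were not low. The part of RNA quality, tissue composition or sex in the low values was not tested. In bulk tissue, fewer cells of a type and less RNA per cell cannot be told apart.

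Whether the members responded differently in the tissues was tested by the genotype by tissue interaction, in which the log2 fold change in striatum is subtracted from that in cerebellum. Of the 35 members, 0 were called by edgeR, where 0.39% of all genes were, and 1 had an unadjusted p under 0.05, as 11.6% of all genes did. DESeq2 called 0 as well. With all libraries the median was −0.33 and every member was below 0. Without WT replicate 1 the median was 0.00054, with 18 members above 0, 17 below and 0 called (0.694% of all genes). The smallest p was that of Ndufv1, at −0.24 (SE 0.110, edgeR adjusted p = 0.416), or −0.11 (adjusted p = 0.518) without WT replicate 1. In the same edgeR test Ndufa9 was at −0.24 (SE 0.118, adjusted p = 0.452), Ndufb4 at −0.64 (SE 0.318, adjusted p = 0.453) and Ndufs8 at −0.47 (SE 0.262, adjusted p = 0.518). Without WT replicate 1 they were at −0.10, −0.31 and −0.17 (edgeR adjusted p = 0.603, 0.631 and 0.421). The interaction shares its samples with both genotype comparisons.

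**Figure D4:**
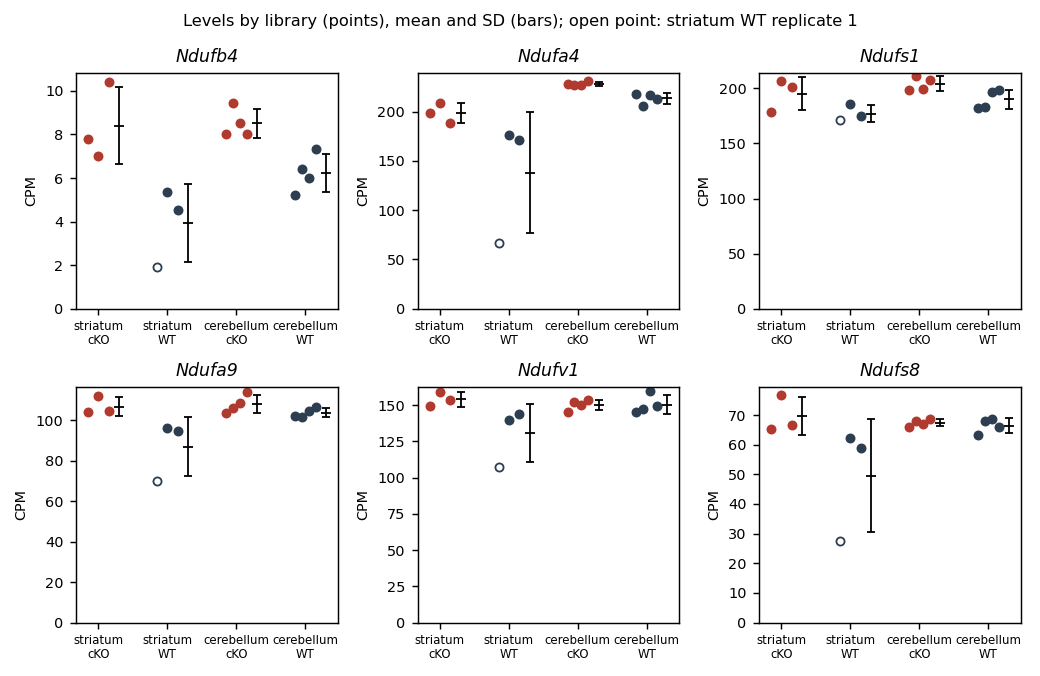
CPM of Ndufb4, Ndufa4, Ndufs1, Ndufa9, Ndufv1 and Ndufs8 in each library (points) with the mean and SD of each group (bars), for cKO and WT striatum (n = 3 each) and cKO and WT cerebellum (n = 4 each). The open point is striatum WT replicate 1, which is the lowest of the 6 striatal points in every panel. Ndufb4 lies higher in every cKO than in every WT library of the same tissue, at 8.03 to 9.47 CPM in cKO cerebella and 5.21 to 7.31 CPM in WT cerebella.

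In WT mice the striatum was compared with the cerebellum, as log2 of striatum over cerebellum. With all 7 WT libraries, edgeR called 5 of 35 members lower in striatum, where 32.7% of all genes were, and 0 higher, where 31.5% of all genes were. The median of the members was −0.26, against −0.03 over all genes. Without WT replicate 1, 10 members were lower (36.4% of all genes) and 4 higher (34.7%), and the median was −0.008. Members called in each direction came from both the proximal and the distal membrane arm.

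Ndufc2, a small subunit of the proximal membrane arm, differed most. It stood at 33.5, 69.7 and 66.7 CPM in WT striata, against 94.5, 103, 101 and 98.1 CPM in WT cerebella. All WT striata were below all WT cerebella, also without replicate 1 (log2 fold change −0.80, SE 0.207, edgeR adjusted p = 0.00786; −0.54 without it, SE 0.0556, adjusted p = 2.7e-06). It was called under all 15 settings tried.

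The other members called lower with all WT libraries were Ndufb11 (−0.72, edgeR adjusted p = 0.0325), Ndufs7 (−0.58, 0.0332), Ndufb8 (−0.67, 0.0423) and Ndufv3 (−0.62, 0.0456). Without WT replicate 1 they were at −0.42, −0.32, −0.37 and −0.33 and all were called. All 4 lost the call when cerebellum WT replicate 2, 3 or 4 was left out (edgeR adjusted p from 0.0508 to 0.0786), and Ndufb8, Ndufs7 and Ndufv3 also without cerebellum WT replicate 1 (0.0567 to 0.0749). Ndufb11, an accessory subunit encoded on the X chromosome, stood at 25.8, 61.2 and 62.3 CPM in WT striata, against 77.0, 80.8, 86.0 and 85.1 CPM in WT cerebella. Ndufb8 stood at 45.4, 109 and 107 CPM in WT striata, against 137, 138, 146 and 136 CPM in WT cerebella. In both genes the tissues were well apart even without the low library.

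Ndufs7 stood at 32.2, 66.1 and 64.0 CPM in WT striata, against 78.2, 82.4, 83.2 and 79.4 CPM in WT cerebella. Ndufv3 stood at 22.5, 51.7 and 50.5 CPM in WT striata, against 63.7, 62.4, 64.4 and 65.1 CPM in WT cerebella. Both were lower in every WT striatum than in any WT cerebellum. Ndufa4, Ndufa13, Ndufa6, Ndufa9 and Ndufs8 were called lower when WT replicate 1 was left out, at −0.31, −0.24, −0.17, −0.13 and −0.14 (edgeR adjusted p from 8.75e-05 to 0.0442).

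The members called higher in WT striatum without replicate 1 were Ndufa3 (0.51), Ndufa8 (0.43), Ndufb9 (0.29) and Ndufb10 (0.26). Ndufa3, a small membrane-arm subunit, stood at 18.4, 64.2 and 61.8 CPM in WT striata, against 45.3, 40.2, 47.2 and 43.5 CPM in WT cerebella. Replicate 1 lay below the cerebellar range and the other WT striata above it. Ndufa8, which is imported into the intermembrane space, showed the same pattern, at 37.3, 82.5 and 80.9 CPM in WT striata, against 60.5, 60.8, 60.4 and 59.7 CPM in WT cerebella. With all libraries these log2 fold changes were 0.13 for Ndufa3, 0.15 for Ndufa8, −0.03 for Ndufb9 and −0.06 for Ndufb10, and none passed in edgeR. With the same libraries, limma with quality weights called Ndufa8 higher in WT striatum.

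**Figure D5:**
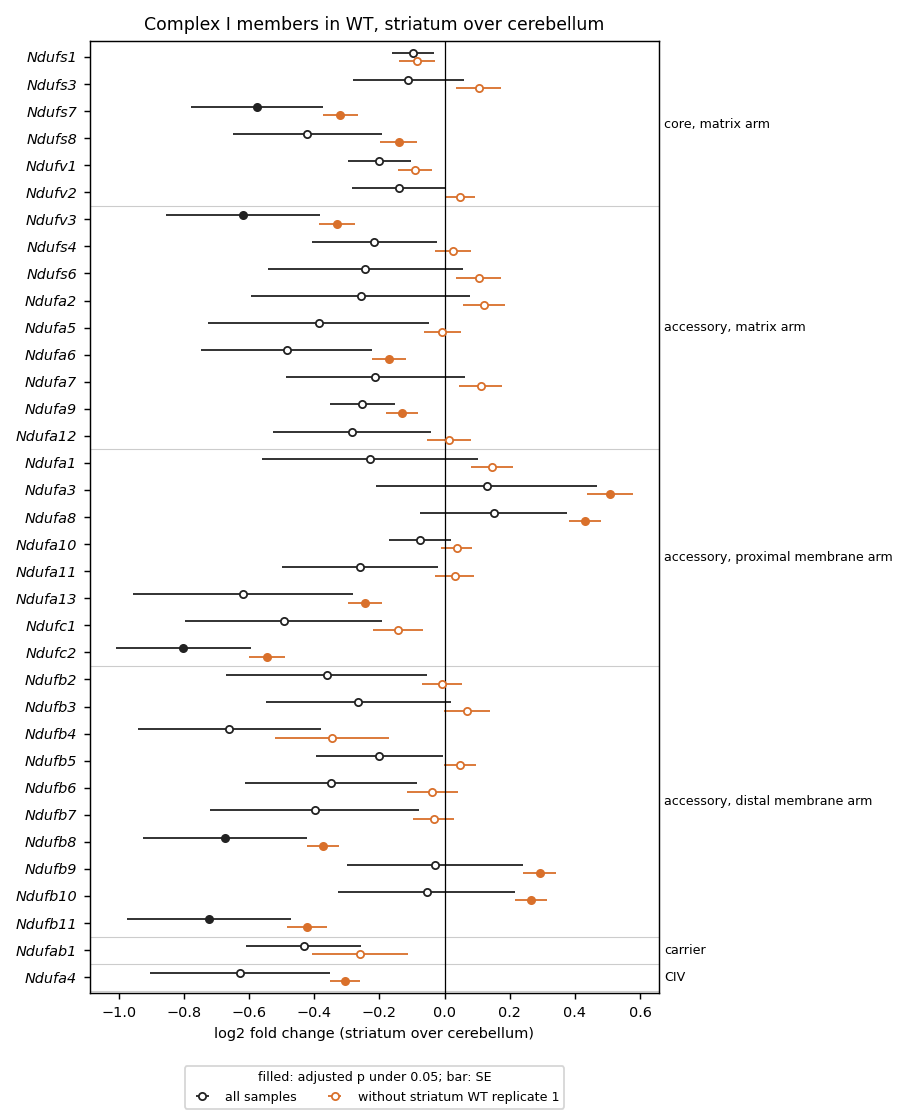
Log2 fold change of each of the 35 measured members in WT mice, striatum over cerebellum (horizontal axis; bars are SE), with all 7 WT samples (black) and without striatum WT replicate 1 (orange), ordered by arm, with CIV for cytochrome c oxidase. Filled points have an adjusted p under 0.05: 5 black points, all below 0, and 14 orange points, 10 below and 4 above 0.

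Levels of different members were compared per kilobase of transcript. Ndufa4 was highest in every group, at 326 CPM per kb of principal transcript in cKO striata, 226 in WT striata (285 without replicate 1), 374 in cKO cerebella and 350 in WT cerebella. In WT cerebella it was followed by Ndufb8 at 205 CPM per kb, then by Ndufb9 and Ndufc2, both at 145 CPM per kb. In WT striata it was followed by Ndufb9 at 142 and Ndufb10 at 134 CPM per kb (178 and 168 without replicate 1). The lowest measured members in WT cerebella were Ndufab1 at 4.68, Ndufb4 at 6.43 and Ndufc1 at 22.2 CPM per kb, and the same 3 were lowest in WT striata, at 3.45, 4.04 and 15.7 CPM per kb (3.92, 5.09 and 20.2 without replicate 1). Both Ndufb4 and Ndufab1 have other loci named after them in the annotation, with which reads could be shared. Per kb of exon union, Ndufa4 was again highest (155 CPM per kb in WT cerebella), followed there by Ndufc2 at 131 and Ndufb9 at 99.0 CPM per kb. By that length Ndufb2 took the place of Ndufc1 among the lowest 3.

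Several members share exonic sequence with a neighbour on the other strand, and 2 of those neighbours were called in cerebellum. Mrpl36, a mitochondrial ribosomal protein gene overlapping Ndufs6, rose in cKO cerebella (log2 fold change 0.36, edgeR adjusted p = 0.00201), while Ndufs6, a zinc-binding subunit of the matrix arm, was at 0.10 and did not pass (adjusted p = 0.308). The sources used here do not state whether counting used strand, so reads of overlapping genes cannot be told apart. Mrpl47, overlapping Ndufb5, rose by 0.24 (edgeR adjusted p = 0.0416), while Ndufb5 was at 0.05 and did not pass (adjusted p = 0.412). Ndufb4 and Ndufa4 overlap no other annotated gene.

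Genes that work with complex I were read from lists chosen for their function. Of 38 genes of complexes II to V, 6 rose in cKO cerebella and 0 fell, while 2.63% of all genes rose and 4.96% fell. Their median log2 fold change was 0.08, and 17 had an unadjusted p under 0.05, against 22.5% of all genes. Those called were the cytochrome c oxidase subunits Cox6c (0.16), Cox8a (0.17), Cox5b (0.23) and Cox5a (0.18). The ATP synthase subunit Atp5k (0.20) and the complex III subunit Uqcrh (0.11) were called too. Of 19 assembly factors of complex I, 11 were measured by these symbols, and 0 were called in cerebellum, with a median of 0.07 and 2 at an unadjusted p under 0.05. Of 11 regulators of mitochondrial gene expression 0 were called, with a median of −0.02 and 1 at an unadjusted p under 0.05. DESeq2 called 8, 0 and 0 genes of the 3 lists in cerebellum, all higher. In striatum 0 genes of the 3 lists were called by edgeR or by DESeq2, and the medians were 0.36, 0.14 and −0.07 with all libraries and 0.08, 0.07 and −0.0057 without WT replicate 1. At an unadjusted p under 0.05 there were 3, 0 and 0 genes with all libraries and 6, 0 and 1 without WT replicate 1. Of all genes, 7.24% and 8.49% had such a p in striatum with and without that library.

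Some cell type markers also changed with genotype. Of 14 oligodendrocyte genes, 6 fell in cKO striata, and 9 without WT replicate 1. Of all genes, 0.384% and 0.856% were called there in either direction. In cKO cerebella 9 of the 14 fell, while 4.96% of all genes fell and 2.63% rose. The summed level of the oligodendrocyte genes was 4416 to 4963 CPM in cKO cerebella and 5105 to 5635 CPM in WT cerebella. In striatum it was 5182 to 6420 CPM in cKO and 8134 to 9943 CPM in WT. Of 7 meningeal genes, 2 rose in cKO cerebella, and the list summed to 279 to 340 CPM in cKO and 192 to 238 CPM in WT cerebella. Of 8 astrocyte genes, 3 rose and 1 fell in cKO cerebella, with sums of 5799 to 6462 CPM in cKO and 5795 to 6148 CPM in WT cerebella. Of 10 granule and Purkinje neuron genes, 1 rose and 1 fell in cKO cerebella. Among these 10, 7 had an unadjusted p under 0.05, against 22.5% of all genes. Their sums overlapped, at 14660 to 15800 CPM in cKO and 14560 to 15530 CPM in WT cerebella. Of 7 choroid plexus genes, 0 were called in cerebellum by edgeR and 0 had an unadjusted p under 0.05, with overlapping sums of 715 to 3447 CPM in cKO and 40.6 to 2130 CPM in WT cerebella. The part of these shifts in the values of the members was not tested.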

How the data were processed

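RNA sequencing counts of 14 mouse brain libraries were used. The authors deposited whole-number read counts per gene symbol, 1 table per sample, with no blank row. The tools that the submitters' processing notes list are cutadapt (1.13), STAR, HTSeq (0.6.1p1) and DESeq2, with build mm10. Their roles and order, the annotation and the strand setting are not stated there.

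Counts were scaled with TMM factors and filtered with filterByExpr (minimum count 10, minimum total 15). Each comparison was fitted over all genes with edgeR 4.0.16 in R 4.3.3 (robust quasi-likelihood test, Benjamini-Hochberg adjustment), and a gene was called at an adjusted p under 0.05. Genotypes were compared within each tissue, the tissues within WT, and the interaction in a model of all samples. The SE is the log2 fold change over the square root of F. CPM use TMM factors over all 14 libraries. DESeq2 1.42.0, limma 3.58.1, other scalings, no filter, a replicate block, length trends removed (the principal-transcript version added after the data had been seen) and leaving out each library were tried. The number of replicates and the depth limit the precision.

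The members, lists and tests were chosen with earlier results of these data known. The rule named members called between genotypes or in the interaction, the 4 of smallest p where a comparison called none, the core subunits, Ndufa4, Ndufab1, and the 3 highest and lowest per kb in WT. Members named between WT tissues, at the ends of a range or without overlap, and overlapping neighbours, were chosen after their values were seen. Loci and lengths are from GENCODE vM21 on GRCm38. The principal transcript is the coding transcript ranked first by APPRIS, with ties broken by CCDS, support level and the shortest length. Of the symbols, 89.8% matched the annotation directly and 8.23% through a synonym. The scripts were tested on simulated counts.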

Additional observations from a re-analysis of the deposited data

Results flagged for a closer look

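Values of 5 members stood far from the other samples of their group in cerebellum, among 70 groups of 4 values examined, where chance alone flags about 1 in 20. In cKO cerebella, Ndufa4 was at 230.9 CPM in replicate 4, against 227.0 to 227.7 CPM in the others. Ndufa7, an accessory subunit of the matrix arm, was at 45.1 CPM in replicate 4, against 49.8 to 50.3 CPM in the others. Ndufs4, an accessory subunit of the NADH-oxidising module, was at 70.5 CPM in replicate 1, against 73.6 to 74.2 CPM in the others. In WT cerebella, Ndufa6 was at 69.8 CPM in replicate 1, against 72.7 to 73.1 CPM, and Ndufb5 was at 91.8 CPM in replicate 1, against 88.6 to 88.7 CPM. The groups of 3 striatal samples were not examined in this way.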

How the results depend on the processing

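In striatum 0 members were called under the settings tried other than the model of all 14 libraries, which called 1, Ndufb4. The median log2 fold change of the members was 0.08 to 0.56 with a library left out, lowest without WT replicate 1, and 0.12 with limma. In cerebellum 2 members were called; 4 with library totals, 1 without the low-count filter, 1 with either length trend removed, 0 in the model of all 14 libraries, and 0 to 2 with a library left out (0 without cKO replicate 2). The median of the members was 0.0386 with the exon length trend and 0.0324 with the principal transcript trend removed, the second chosen after seeing the data. Between WT tissues 5 members were called; 11 with library totals, 2 without the filter, 8 with DESeq2, limma or the principal transcript trend removed, and 1 to 14 with a library left out (14 without striatum WT replicate 1). The interaction called 0 members under the 22 settings tried. The main tests did not pair the samples by replicate number. Between genotypes, samples of the same number had correlations of deviations of 0.0912 to 0.204 in striatum and 0.0946 to 0.347 in cerebellum. With a replicate block, 0, 2, 0 and 4 members were called in striatum, cerebellum, the interaction and between WT tissues, with medians of 0.46, 0.06, −0.42 and −0.37. In striatum every sample correlated best with its own number, and in cerebellum 1 of 4 pairs did, a hint from the data and not from the design. Over all genes, 54 were called in striatum, but 153 by DESeq2, 186 by limma, 86 and 104 with the exon and principal transcript trends removed, 15 with the block, 376 in the model of all libraries and 3 to 122 with a library left out. In cerebellum 1121 were called, 251 in the model of all libraries and 739 to 1165 with a library left out. The interaction called 60, but 228 by DESeq2, 102 by limma, 99 with the principal transcript trend removed, 1 with the block and 17 to 193 with a library left out. The cause of these changes was not tested. Ndufb4 rests on 22 to 237 counts per library, which limits the precision of its values.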
